A study of Homo sapiens with 24 samples.

Results

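The replication-independent histone variants comprised 7 genes, H2AZ1, H2AZ2, H2AX, H2AJ, H3-3A, H3-3B and MACROH2A1, out of 22692 genes that could be named on the arrays. A probe belonged to a member if the RefSeq accession that the array design gives for it maps to that gene. This gave 13 of 50599 probes at 24 h, namely 4 for H3-3A, 2 each for H3-3B, H2AZ2 and H2AJ, and 1 each for H2AX, H2AZ1 and MACROH2A1. At 48 h it gave 10 of 58201 probes for 6 of the genes, since no probe of that array version carries an accession of H3-3B and H3-3A has 3 probes there.

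The samples were LNCaP cells, an androgen-sensitive line from a metastasis of prostate cancer, transfected with siRNA by electroporation and grown in medium with fetal bovine serum. The groups were scramble, a negative control siRNA duplex, si-A1, directed against the long non-coding RNA TAPIR-1, and si-A2, directed against the neighbouring TAPIR-2. At 24 h and 48 h after transfection, 4 biological replicates per siRNA were taken, and each sample was hybridised to an Agilent 1-colour array of its own. Of the 24 arrays 23 were used, leaving out replicate 2 of si-A2 at 48 h, which was dimmer than the rest, so that this group has n = 3. All groups come from a single cell line and a single siRNA per target, and the 24 h and 48 h samples were on different versions of the array, so time and array version cannot be told apart.

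Most core histones are made in S phase, from clustered genes whose transcripts end in a stem-loop and carry no poly(A) tail. The variants described here come from separate genes with polyadenylated transcripts, and can be placed into chromatin outside S phase by dedicated chaperones and remodellers. The gene of H2AX also gives a short transcript with a stem-loop, made in S phase like those of the canonical histones. H2A.Z, the product of H2AZ1 and H2AZ2, sits beside transcription start sites. H2AX is phosphorylated around DNA breaks. H2AJ is an H2A variant linked to senescence, macroH2A1 carries a large additional domain and marks repressed chromatin, and H3.3, the same protein from H3-3A and H3-3B, replaces H3 at active genes.

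The member genes lie on separate chromosomes of GRCh38.p14, and all 7 had at least 1 promoter window in RefSeq, 11 windows in all, each from 250 bases before to 50 after a transcription start. The windows were searched on both strands for the cell cycle genes homology region (CHR), written as TTTGAA or TTCGAA, for CCAAT, and for E2F sites written as TTTCCCGC, TTTGGCGC, TTTCGCGC or TTTGCCGC. A CHR word was found for H2AX, H2AZ1 and H2AZ2 and in no window of the other 4 members, where 16.4% of all 35116 promoter windows hold one. By window, 3 of the 11 hold a CHR word. CCAAT was found in 9 of the 11 windows, with 1 or more for each gene, against 34.6% of all windows, and an E2F word in none, against 3.31%. The CHR and CCAAT words do not share bases in these promoters. With si-A1, the 3 genes with a CHR word are also those whose values differed most from scramble below. With si-A2 at 24 h this did not hold. There the H2AZ2 probes differed by 1.07-fold and 1.06-fold, and the brighter probe of H3-3B, which has no CHR word, by 1.21-fold. Whether the word bears on the values was not tested. Their promoters and that of H2AJ, for comparison, are shown from 200 bases before the start to 20 bases from it. They are written 5′ to 3′ on the strand of the gene, with the words found in capitals. They span chr11:119095446-119095665 for H2AX, chr4:99950256-99950475 for H2AZ1 and chr7:44848068-44848287 for H2AZ2, all on the minus strand, and chr12:14774205-14774424 on the plus strand for H2AJ.
H2AX: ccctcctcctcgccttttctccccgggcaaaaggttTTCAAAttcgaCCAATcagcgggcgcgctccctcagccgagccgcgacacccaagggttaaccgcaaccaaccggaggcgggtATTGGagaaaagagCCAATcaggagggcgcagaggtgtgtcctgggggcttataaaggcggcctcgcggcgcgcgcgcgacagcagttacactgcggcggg
H2AZ1: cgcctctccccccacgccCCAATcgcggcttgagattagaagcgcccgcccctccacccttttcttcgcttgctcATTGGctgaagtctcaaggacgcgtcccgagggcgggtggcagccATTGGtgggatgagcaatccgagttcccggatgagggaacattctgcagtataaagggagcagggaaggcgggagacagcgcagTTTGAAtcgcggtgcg
H2AZ2: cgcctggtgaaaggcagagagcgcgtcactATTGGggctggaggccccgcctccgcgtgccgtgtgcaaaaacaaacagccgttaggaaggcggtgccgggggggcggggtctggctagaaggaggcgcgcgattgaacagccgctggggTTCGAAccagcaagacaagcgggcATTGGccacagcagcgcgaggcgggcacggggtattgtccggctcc
H2AJ: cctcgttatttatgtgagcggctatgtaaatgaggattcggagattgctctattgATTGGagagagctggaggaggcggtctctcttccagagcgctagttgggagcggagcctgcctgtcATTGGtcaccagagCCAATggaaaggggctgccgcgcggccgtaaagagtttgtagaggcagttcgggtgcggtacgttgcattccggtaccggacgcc

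The CHR word of H2AX is read on the opposite strand and starts 164 bases before the transcription start. That of H2AZ1 is at base 5 of the transcript, and that of H2AZ2, the only one with a CG step, starts 50 bases before the start. H2AX holds ATTGG, the reverse complement of CCAAT, at -81 and CCAAT at -67 from the start, and H2AJ holds the same pair at -79 and -65. Among the replication-dependent histone genes, 24 of 62 windows hold a CHR word, 52 a CCAAT word and 17 an E2F word. A match is a description of the letters and says nothing about binding.

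Values are log2 intensities after quantile normalization within each time point, and a difference of 1 is a factor of 2 in brightness. Calls came from limma, with p adjusted by Benjamini-Hochberg over all probes above background, 44849 at 24 h and 45200 at 48 h. They required an adjusted p under 0.01 together with a log2 difference of 0.5 or more either way. Before normalization, the median processed intensity of an array was 24.4 to 57.2 at 24 h and 20.4 to 32.2 at 48 h, and 58.5% to 71.7% and 60.3% to 66.5% of the probes were well above background. The luminal keratins KRT8 and KRT18 and the prostate antigen FOLH1, from the list of luminal prostate markers, were well above background on every array. Of 8 markers of other cell types, KRT5 and COL1A2 were not well above background on any array, COL1A1 was on 3 of 12 arrays at 24 h and on none at 48 h, PTPRC was on all, and VIM, PECAM1, KRT14 and TP63 were on 12, 12, 10 and 7 of 12 arrays at 24 h and on 10, 8, 10 and 1 of 11 at 48 h. No probe of the markers of other cell types was called. Of 15 luminal marker probes, 4 were called lower with si-A1 at 48 h, against 3.98% of all probes. Among them was a probe of KRT18 (-0.51, limma adjusted p = 0.0064). For si-A2 against si-A1 at 48 h 1 of the 15 was called higher, against 0.982%. The part of either list in the results was not tested.

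No probe matched TAPIR-1 by accession. The TAPIR-2 probe A_19_P00318461 read 5.08, 4.98, 5.28 and 4.81 in scramble at 24 h, 4.95, 4.75, 4.68 and 4.19 with si-A1, and 4.70, 3.12, 4.61 and 3.82 with si-A2. All 4 values of si-A2 were below those of scramble, and the difference of -0.98 ± 0.33 (SE) did not pass the test (limma adjusted p = 0.23). Only 2 of the 4 arrays of si-A2 gave it well above background, and all arrays of the other groups did, so that the size of this difference is uncertain. The same probe at 48 h read 4.70, 5.41, 4.02 and 4.44 in scramble, 5.46, 5.55, 4.36 and 3.93 with si-A1, and 5.62, 3.83 and 4.60 with si-A2, and the groups overlapped. For a second TAPIR-2 probe on the 48 h array, no array gave a signal well above background. The targeted RNAs therefore give no check of the labels at either time, and the groups below are named as labelled.

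H2AX fell with si-A1 at both times, and its si-A2 values were below scramble without passing the test. At 24 h its probe read 6.74, 7.21, 7.33 and 6.81 in scramble, 5.34, 5.10, 5.44 and 4.69 with si-A1, and 6.09, 6.14, 5.71 and 5.85 with si-A2. The 3 groups did not overlap, with si-A1 lowest and si-A2 between. With si-A1, H2AX fell by 1.88 ± 0.20 (SE, as all values after ± here, n = 4 per group) on the log2 scale, 3.68-fold with a 95% interval of 2.70 to 5.01 (limma adjusted p = 0.000577). The difference was smaller, -0.92 and -0.93, with normexp and with no background correction, both called, and it missed the threshold when si-A1 and scramble were fitted alone (adjusted p = 0.0109). With si-A2 the difference was -1.07 ± 0.20, 2.11-fold, and was not called (limma adjusted p = 0.0217). It passed when arrays were scaled on their 75th percentile, when the background was corrected by normexp or not corrected, and when probes had to be well above background (adjusted p 0.00477 to 0.00881). With normexp and with no correction the difference was smaller, -0.59.

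At 48 h, H2AX read 8.67, 8.10, 7.34 and 7.91 in scramble, 5.27, 5.41, 5.17 and 5.27 with si-A1, and 7.11, 5.91 and 6.88 with si-A2. All si-A1 arrays were below every si-A2 array, which in turn were all below scramble. H2AX fell by 2.73 ± 0.25 with si-A1, 6.62-fold with an interval of 4.47 to 9.80 (limma adjusted p = 0.000205), and by 1.72 with normexp. The si-A2 difference was -1.29 ± 0.27, 2.44-fold, and was not called (limma adjusted p = 0.0438).

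H2AZ1, the more widely studied of the H2A.Z genes, fell at 48 h with si-A1. At 24 h it read 12.69, 12.74, 13.14 and 12.80 in scramble, 12.38, 12.04, 12.32 and 12.04 with si-A1, and 12.26, 12.27, 12.19 and 12.48 with si-A2. Every array of either siRNA was below every scramble array, but the differences of -0.65 ± 0.15 and -0.54 ± 0.15 were not called (limma adjusted p = 0.0474 and 0.117). Its values at 48 h were 12.58, 12.79, 12.34 and 12.71 in scramble, 10.49, 10.85, 10.61 and 11.02 with si-A1, and 11.68, 11.61 and 12.12 with si-A2. The groups again did not overlap. The fall with si-A1 was 3.64-fold (interval 2.79 to 4.75), as H2AZ1 fell by 1.86 ± 0.17 on the log2 scale (limma adjusted p = 0.0002). With si-A2 the difference was -0.81 ± 0.19 (limma adjusted p = 0.0567).

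H2AZ2, which encodes a protein nearly identical to that of H2AZ1, fell with si-A1 at both times, and both of its probes, which are annotated to different transcripts of the gene, were called. At 24 h the brighter probe, A_23_P145904, read 9.79, 9.83, 9.59 and 9.97 in scramble, 8.55, 8.58, 8.48 and 8.49 with si-A1, and 9.50, 9.87, 9.64 and 9.76 with si-A2. The si-A2 arrays overlapped with scramble, and all si-A1 arrays lay below both. It fell by 1.27 ± 0.13 with si-A1, 2.41-fold (limma adjusted p = 0.000435), and differed by -0.10 ± 0.13 with si-A2, with a 95% interval of -0.39 to 0.19.

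The dimmer H2AZ2 probe, A_23_P316487, read 5.84, 6.29, 6.29 and 6.13 in scramble, 3.82, 4.15, 4.10 and 4.62 with si-A1, and 6.33, 6.08, 5.70 and 6.12 with si-A2 at 24 h. It was well above background on 11 of the 12 arrays, the exception being an si-A1 array. It fell by 1.97 ± 0.20 with si-A1 (limma adjusted p = 0.000435), a difference that was -0.71 with normexp or no background correction and was called with both. The si-A2 difference was -0.08 ± 0.20 with an interval of -0.53 to 0.36. For both probes the si-A2 arrays overlapped with scramble, and the si-A1 arrays were below both groups.

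At 48 h the brighter H2AZ2 probe read 9.33, 9.21, 9.19 and 9.13 in scramble, 7.15, 7.25, 7.34 and 7.35 with si-A1, and 8.47, 8.24 and 8.31 with si-A2, with no overlap between groups. It fell by 1.94 ± 0.09 with si-A1, 3.84-fold with an interval of 3.32 to 4.45 (limma adjusted p = 2.8e-05), and by 0.87 ± 0.10 with si-A2, 1.83-fold (limma adjusted p = 0.00624). The si-A2 call was lost when any single array of the 11 was left out, with adjusted p between 0.0104 and 0.0271 and a difference between -0.95 and -0.83, and with the replicate number as a block (adjusted p = 0.0225). The dimmer probe read 6.02, 5.70, 5.79 and 5.09 in scramble, 1.65, 2.54, 3.13 and 2.26 with si-A1, and 5.16, 4.65 and 4.82 with si-A2. None of the si-A1 arrays had it well above background, so its fall was at least 5.46-fold (limma adjusted p = 0.000294), a bound set by the dimmest signal well above background on each of those arrays. The bound holds for the processed intensities, since with normexp the difference was -0.78 and with no background correction -1.11. The si-A2 arrays overlapped with scramble, and the difference of -0.77 ± 0.35 was not called (limma adjusted p = 0.29).

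**Figure D1:**
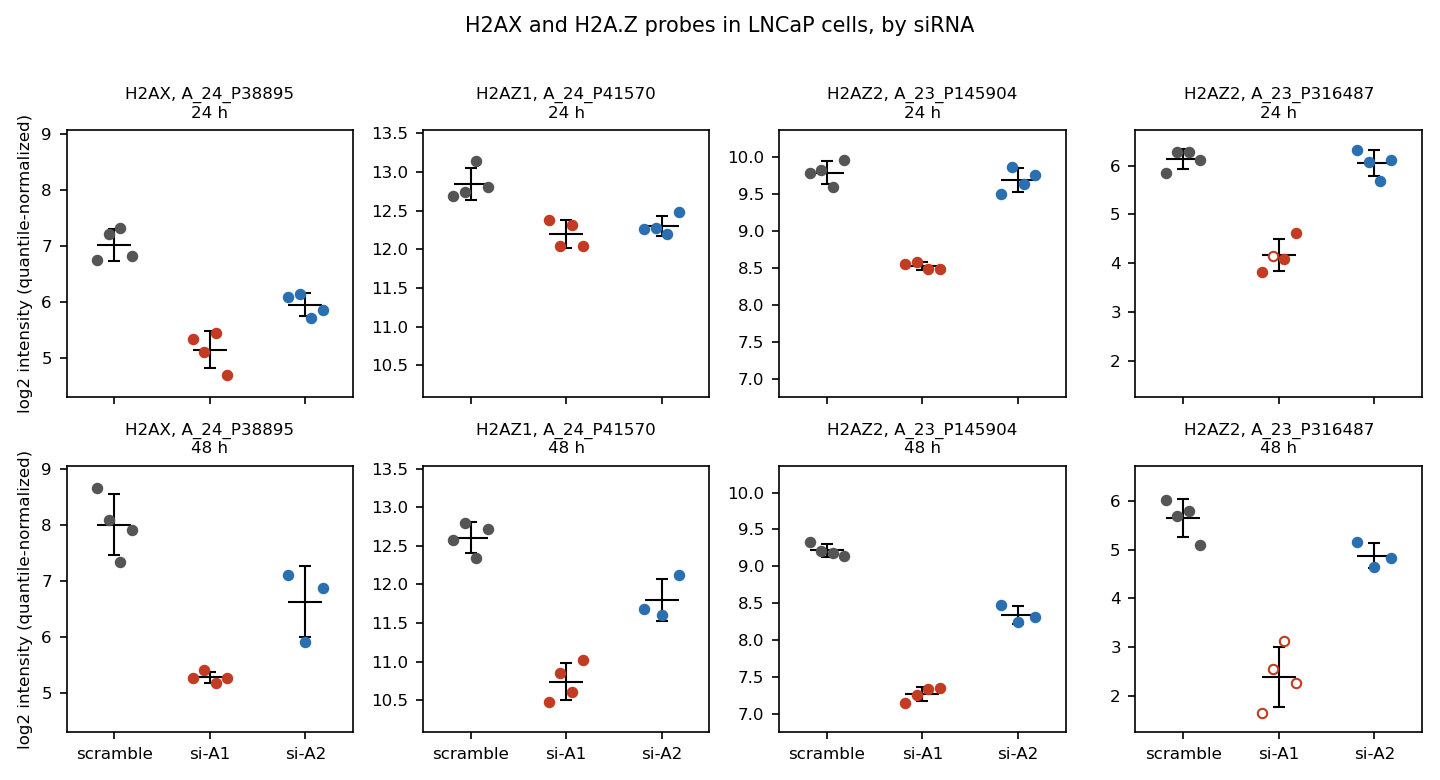
Log2 intensity (quantile-normalized) of the H2AX, H2AZ1 and H2AZ2 probes at 24 h (top) and 48 h (bottom) for scramble, si-A1 and si-A2. Points are arrays, open where the probe was not well above background, lines and bars are the mean and SD. The si-A1 arrays are below all scramble arrays in each panel, while the si-A2 arrays of H2AZ2 overlap with scramble at 24 h.

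No probe of H2AJ was called. The brighter H2AJ probe, A_23_P204277, read 10.13, 10.10, 9.76 and 10.35 in scramble, 10.02, 10.28, 10.15 and 10.44 with si-A1, and 10.16, 10.34, 10.26 and 10.11 with si-A2. At 48 h it read 10.54, 10.61, 10.69 and 10.62, then 10.67, 10.69, 10.62 and 10.58, then 10.69, 10.81 and 10.74 in the same order. The groups overlapped at both times. Its difference was 0.13 ± 0.16 with si-A1 and 0.13 ± 0.16 with si-A2 at 24 h, and 0.02 ± 0.08 (interval -0.15 to 0.20) and 0.13 ± 0.08 at 48 h. The dimmer H2AJ probe, A_33_P3379391, gave -0.06 and 0.10 at 24 h and -0.16 and -0.51 at 48 h, none called.

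MACROH2A1 fell at 48 h with si-A1. At 24 h its probe read 12.64, 13.15, 12.84 and 12.82 in scramble, 13.17, 12.77, 12.99 and 12.71 with si-A1, and 12.98, 12.86, 12.86 and 13.23 with si-A2, and the groups overlapped. The later values were 11.69, 11.64, 11.98 and 11.74 in scramble, 10.72, 10.97, 11.11 and 11.21 with si-A1, and 11.33, 11.41 and 11.72 with si-A2. The si-A1 arrays lay below all others, and the si-A2 arrays overlapped with scramble. MACROH2A1 fell by 0.76 ± 0.11 with si-A1, 1.69-fold with an interval of 1.43 to 2.00 (limma adjusted p = 0.0022), a call that was lost without the slide in the model (adjusted p = 0.0109). The si-A2 difference was -0.32 ± 0.12 (limma adjusted p = 0.206).

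The H3.3 genes gave no call. The brightest H3-3A probe, A_24_P105298, read 13.60, 13.70, 14.15 and 13.54 in scramble, 13.79, 13.37, 13.56 and 13.43 with si-A1, and 13.70, 13.60, 13.52 and 13.66 with si-A2 at 24 h. At 48 h it read 12.68, 13.05, 12.90 and 12.98, then 12.29, 12.62, 12.46 and 12.77, then 12.64, 12.54 and 13.08, and the groups overlapped at both times. With si-A1 the 4 H3-3A probes differed from scramble by -0.21 to -0.10 at 24 h, and the 3 probes by -0.37 to -0.28 at 48 h (lowest limma adjusted p = 0.0393, for A_32_P208424). With si-A2 they differed by -0.24 to -0.10 and by -0.17 to -0.14.

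The brighter H3-3B probe, A_24_P82419, read 14.41, 14.70, 14.61 and 14.17 in scramble, 14.10, 14.00, 13.98 and 13.72 with si-A1, and 14.40, 14.09, 14.09 and 14.18 with si-A2 at 24 h. Every si-A1 array was below every scramble array, but the difference of -0.52 ± 0.14 was not called (limma adjusted p = 0.113). On the 48 h array the same probe carries the accession of H3-5, a copy of H3-3B without introns, so it lies outside the rule there and its signal may come from either gene. It read 13.67, 13.98, 14.01 and 13.97 in scramble, 12.68, 13.21, 13.19 and 13.48 with si-A1, and 13.12, 13.46 and 13.97 with si-A2 at 48 h, differences of -0.77 ± 0.17 (limma adjusted p = 0.0171) and -0.45 ± 0.19 (limma adjusted p = 0.254). The dimmer H3-3B probe, A_33_P3410194, differed by -0.07 with si-A1 and -0.25 with si-A2 at 24 h and was not called.

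**Figure D2:**
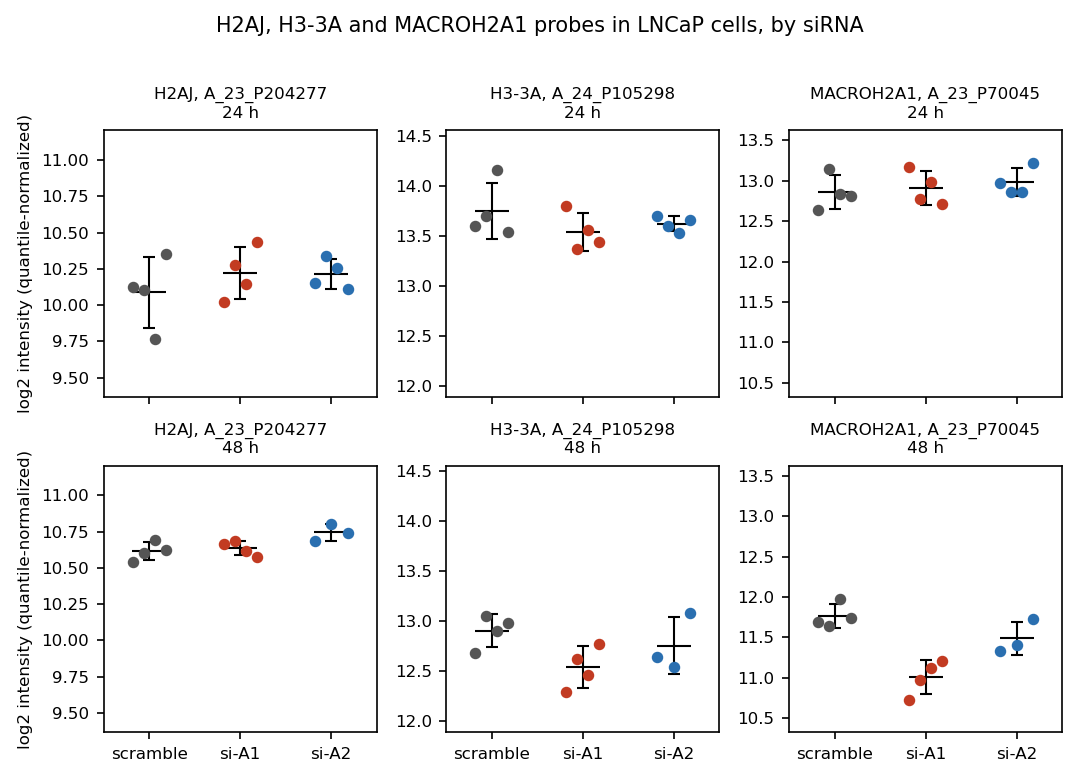
Log2 intensity (quantile-normalized) of the H2AJ probe A_23_P204277, the H3-3A probe A_24_P105298 and the MACROH2A1 probe at 24 h (top) and 48 h (bottom) for scramble, si-A1 and si-A2. Points are arrays, lines and bars are the mean and SD. The groups overlap in every panel but that of MACROH2A1 at 48 h, where the si-A1 arrays are below the rest.

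With si-A1, 3 of 13 member probes, of 2 genes, were called at 24 h, against 1.1% of all probes tested, and 5 of 10, of 4 genes, at 48 h, against 6.11%. All of these calls were lower. The arrays of si-A1 and scramble did not overlap for 5 of 13 probes at 24 h, against 9.32% of all, and for 5 of 10 at 48 h, against 15.6%. With si-A2, 0 of 13 were called at 24 h in limma, against 0.928% (2 had an unadjusted p below 0.05, against 11.7%), and 1 of 10 at 48 h, against 0.445%. The arrays of si-A2 and scramble did not overlap for 2 of 13, against 7.63%, and for 3 of 10, against 11.3%. The median member probe differed from scramble by -0.21 with si-A1 and -0.13 with si-A2 at 24 h, and by -0.56 and -0.41 at 48 h, while the median of all probes was 0.04, 0.04, 0.05 and 0.00 in the same order. The 48 h calls rest on leaving out the dim array: with it kept in the fit no member probe was called for any comparison at 48 h, although H2AX with si-A1 still differed by -2.69 and H2AZ1 by -1.82, and only 27 of all probes were called for si-A1. Within each slide, the called probes of si-A1 differed from scramble in the same direction, the brighter H2AZ2 probe by -1.24 and -1.30 at 24 h and by -2.07 and -1.81 at 48 h.

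The siRNAs were compared directly at matched times. At 24 h, both H2AZ2 probes were higher with si-A2 than with si-A1, by 1.17 ± 0.13 and 1.88 ± 0.20 on the log2 scale (limma adjusted p = 0.00242 and 0.00197), 2.24-fold and 3.69-fold. These were the only called members, 2 of 13, against 0.366% of all probes, while the siRNAs did not overlap for 3 of 13, against 10.5%. The calls depended on single arrays, since leaving out 1 of replicates 1 to 4 of si-A1 or 2, 3 or 4 of si-A2 ended 1 or both of them, with adjusted p up to 0.0148. H2AX was higher by 0.81 ± 0.20, with no overlap between the siRNAs, and was not called (limma adjusted p = 0.0929). H2AZ1 differed by 0.11 ± 0.15, with an interval of -0.22 to 0.43.

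At 48 h the H2AZ2 probes were again the called members, 2 of 10, against 1.45%, while the siRNAs did not overlap for 5 of 10, against 15%. The brighter was higher with si-A2 by 1.07 ± 0.10 (limma adjusted p = 0.0014), and the dimmer by at least 3.19-fold (limma adjusted p = 0.00573, and 0.0194 with the replicate number as a block). With normexp the dimmer differed by 0.46, below the threshold of 0.5. Without replicate 1 of si-A2 neither was called, with adjusted p of 0.0155 and 0.0484. The dimmer alone was lost without replicate 2 or 3 of scramble, 2 or 4 of si-A1, or 3 or 4 of si-A2 (adjusted p up to 0.0253). H2AX was higher by 1.44 ± 0.27 (limma adjusted p = 0.0203) and H2AZ1 by 1.05 ± 0.19 (limma adjusted p = 0.0149, and 0.00728 with the block), again with no overlap between the siRNAs. MACROH2A1 was higher by 0.44 ± 0.12 (limma adjusted p = 0.0659).

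**Figure D3:**
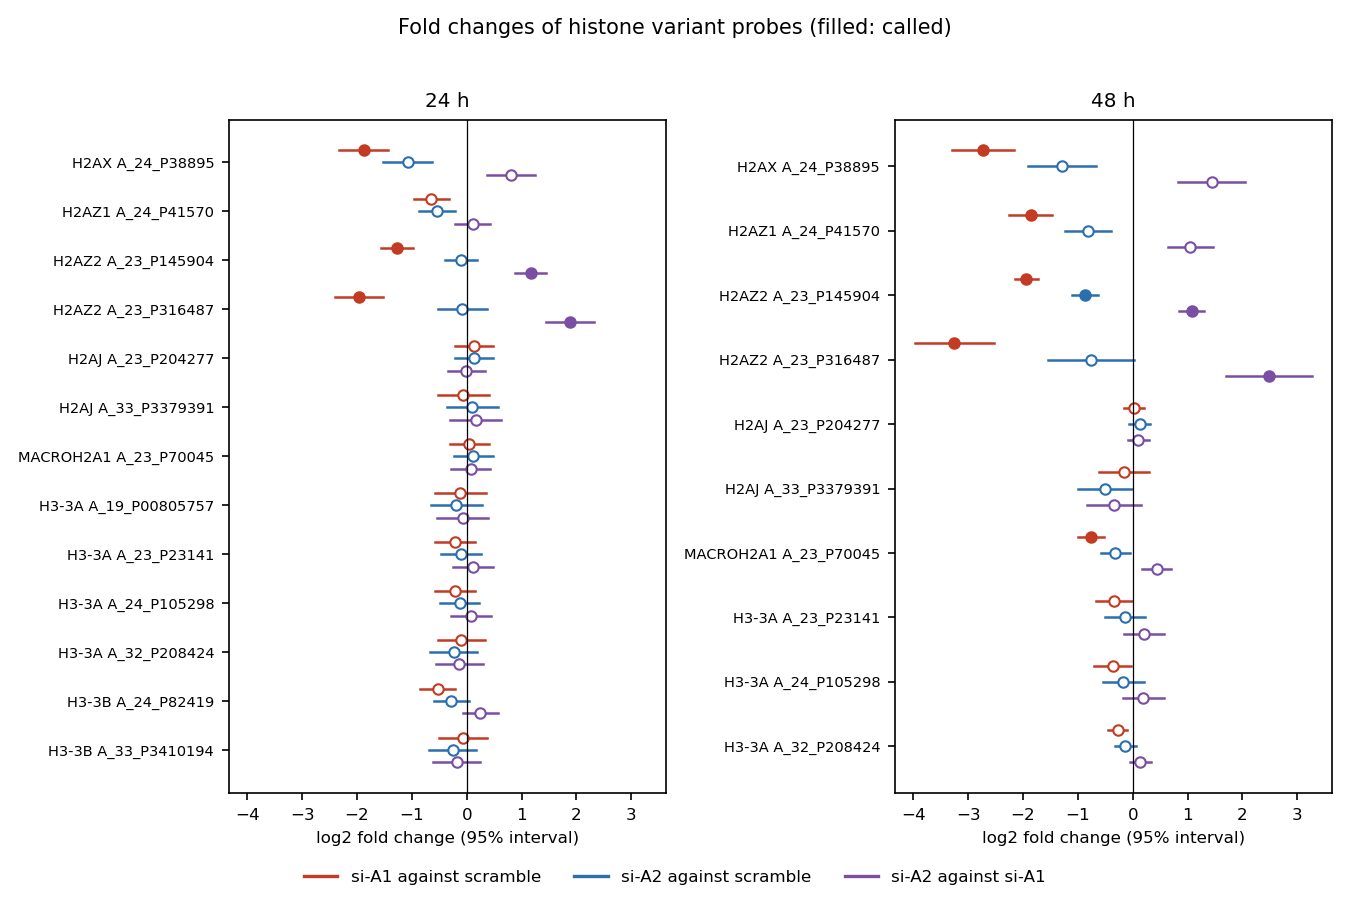
Log2 fold changes of all member probes at 24 h and 48 h with 95% intervals from limma, for si-A1 against scramble (red), si-A2 against scramble (blue) and si-A2 against si-A1 (purple). Filled points were called. Only probes of H2AX, H2AZ1, H2AZ2 and MACROH2A1 have filled points, and the si-A2 intervals of H2AZ2 span 0 at 24 h.

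Whether an effect differed between 24 h and 48 h was tested for the 10 member probes that carry the same gene on both array versions. With si-A1 the effect at 48 h minus that at 24 h was -0.93 ± 0.21 for H2AZ1 (limma adjusted p = 0.0507), -0.64 ± 0.15 for the brighter H2AZ2 probe (0.0524), -0.86 ± 0.33 for H2AX (0.249) and -0.67 ± 0.20 for MACROH2A1 (0.126). With si-A2 it was -0.74 ± 0.16 for the brighter H2AZ2 probe (limma adjusted p = 0.0979) and -0.21 ± 0.34 for H2AX. In limma 0 of 10 probes were called for either siRNA, against 0.159% and 0.0335% of all probes, with 5 and 1 at an unadjusted p below 0.05, against 13.3% and 7.55%. H2AZ1 with si-A1 was called when no background correction was made (-0.96, adjusted p = 0.00955).

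Unequal change was also asked within pairs of members, as the change of the difference between their brightest probes. H2AZ2 minus H2AZ1 differed from scramble by -0.62 with si-A1 and 0.44 with si-A2 at 24 h, and by -0.08 and -0.07 at 48 h. H2AX minus H2AJ differed from scramble by -2.01 and -1.20 at 24 h and by -2.75 and -1.50 at 48 h. H3-3B minus H3-3A differed by -0.31 and -0.15 at 24 h. None of the 10 exact two-sided permutation tests passed after adjustment (lowest adjusted p = 0.0714). The smallest p they can give is 0.0286 for 4 against 4 arrays and 0.0571 for 4 against 3. An adjusted p under 0.01 was therefore out of reach, and the tests cannot decide at that level. H2AX minus H2AJ gave the smallest possible p with either siRNA at both times, and H2AZ2 minus H2AZ1 did with si-A2 at 24 h.

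The replication-dependent core histones, the canonical S-phase copies of H2A, H2B, H3 and H4, were lower after both siRNAs. At 24 h, 47 of their 70 probes were called lower with si-A1 and 53 of 70 with si-A2, against 1.02% and 0.838% of all probes. Called or not, 66 and 70 of the 70 had a difference below 0, against 19931 and 19940 of all 44849 probes. The median differences were -1.42 and -1.63. With only the groups compared in the fit, 31 and 33 were called. At 48 h, 57 of 68 were called lower with si-A1, against 3.98% of all probes. The probe of H2AC25 (0.61) was called higher, 1 of 68, against 2.13%. With si-A2, 9 of 68 were called lower, against 0.376%. Called or not, 65 of 68 had a difference below 0 with either siRNA. Of all 45200 probes, 19891 did with si-A1 and 22322 with si-A2. The medians at 48 h were -2.28 with si-A1 and -1.32 with si-A2. The calls of si-A2 at 48 h depended on the fit, with 0 of 68 under the replicate block, 0 or 1 without single arrays, 1 without the slide term, and 48 with normexp, at medians of -1.53 to -1.08. H2AC25 was not called under the block (adjusted p = 0.0106) or with normexp, where its difference was 0.26. With the dim array kept, 0 of 68 were called for either siRNA. H3C15 had the lowest value with si-A2 at 24 h (-4.53, limma adjusted p = 1.75e-05). In the direct comparison at 24 h, in which both H2AZ2 probes were called, 0 of 70 of these probes were called in limma, against 0.366% of all. Their median difference was -0.15. At 48 h, 5 of 68 were called higher with si-A2, against 0.982% of all probes, with a median of 0.94 over the 68. The count was 8 under the block, 0 without any single array and 31 with normexp. Several of these genes are near-identical in sequence and may share signal between probes. The values come from bulk RNA, in which fewer cells in S phase and less RNA per cell cannot be told apart.

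**Figure D4:**
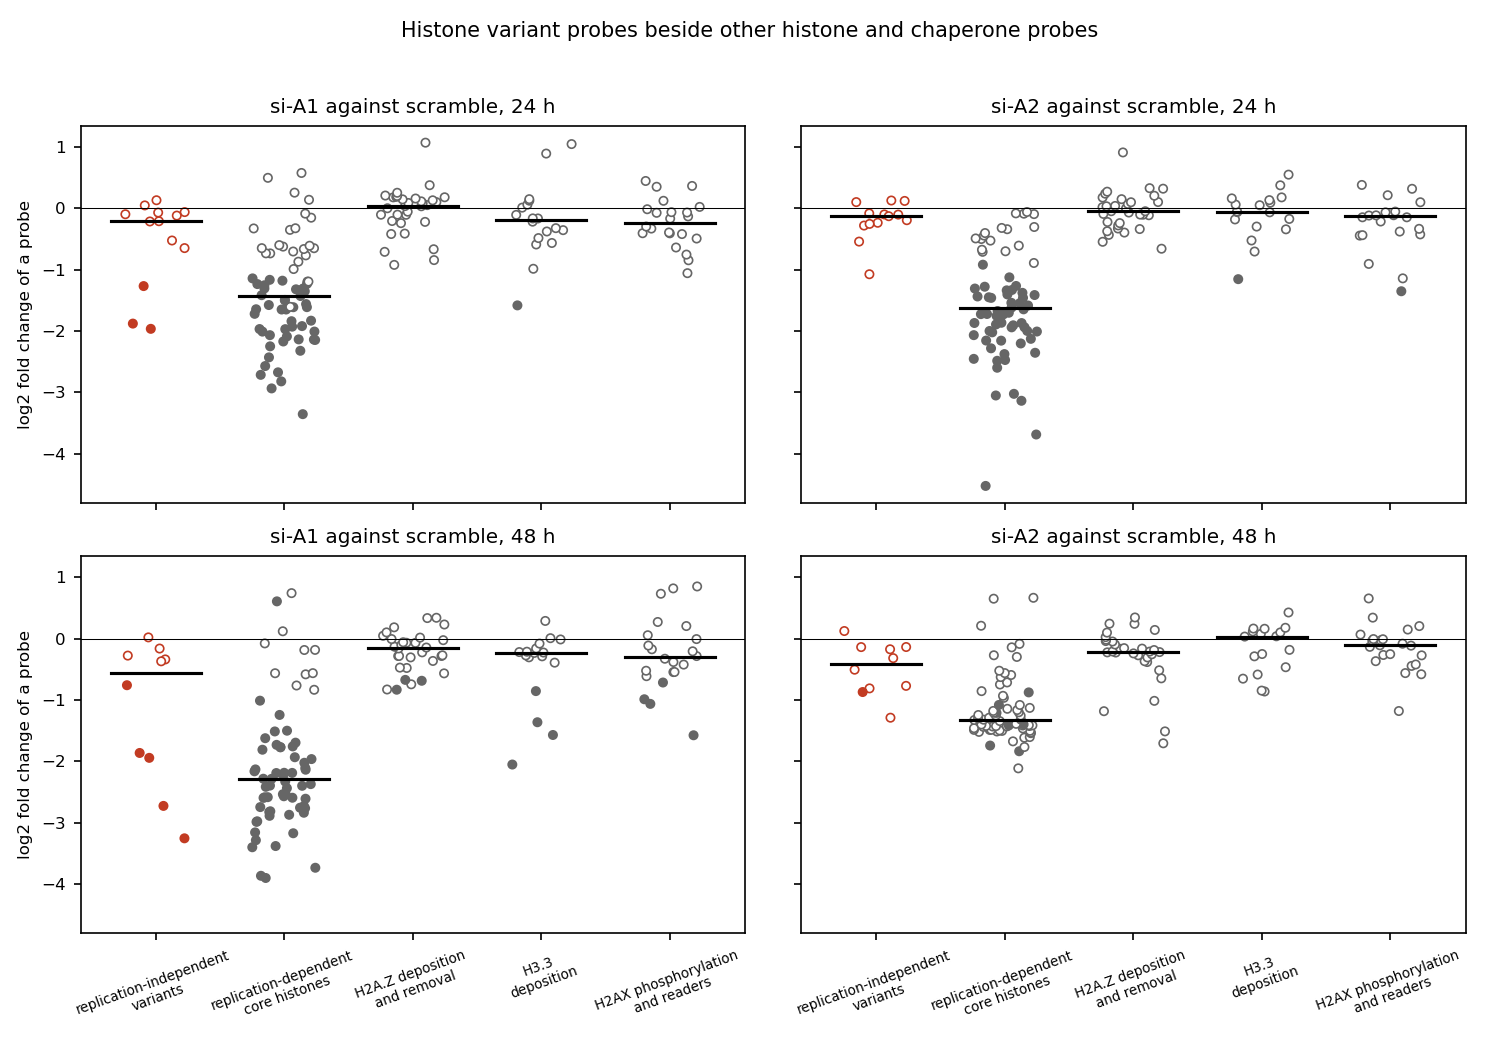
Log2 fold change of each probe against scramble for the members (red) and for 4 other lists (grey), for either siRNA at 24 h and 48 h. Filled points were called, and black lines are medians. The replication-dependent histones have medians of -1.42, -1.63, -2.28 and -1.32, further from 0 than those of the members, and the medians of the 3 lists of chaperones, enzymes and readers lie between -0.30 and 0.05.

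Among other core histone variants, CENPA, the centromeric H3, fell at 48 h with both siRNAs. It was well above background on the 4 scramble arrays and on no array of either siRNA, so that its fall is given as a bound. It was 2.61-fold or more for si-A1 (limma adjusted p = 0.000133) and 2.40-fold or more for si-A2 (limma adjusted p = 0.00616). The si-A2 call of CENPA was lost under the replicate block (limma adjusted p = 0.0157) and without any single array of the 11 (up to 0.0325), and with normexp CENPA differed by -0.56 and -0.42. At 24 h it was well above background on 1 scramble array only. The H3-4 probe fell by 0.99 ± 0.17 with si-A1 at 48 h (limma adjusted p = 0.00615), a call that was lost without any 1 of 7 of the arrays. As the coding sequence is close to that of canonical H3 genes its signal may be shared with them. MACROH2A2, the second macroH2A gene, differed by -0.07 and -0.17 at 24 h and by 0.18 and -0.22 at 48 h, none called.

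Of the genes that place or remove H2A.Z (the SRCAP and TIP60/p400 complexes, INO80 and the chaperones ANP32E and NAP1L1), 0 of 32 probes were called at 24 h with either siRNA in limma. Of all probes, 1.1% were called there with si-A1 and 0.928% with si-A2. At 48 h 0 of 31 were called with si-A2, against 0.445% of all probes. With si-A1 3 of 31 were called lower, against 3.98% of all probes. These were ACTR6, an actin-related subunit of SRCAP (-0.83 ± 0.14, limma adjusted p = 0.00446), and both probes of MEAF6, a subunit of NuA4-type acetyltransferases (-0.69 and -0.67). None of the 3 was called under the replicate block (adjusted p 0.0159 to 0.0238), and each was lost when any 1 of 6 to 10 of the 11 arrays was left out. The 3 probes of ANP32E, which removes H2A.Z from nucleosomes, differed by -1.51, -1.18 and -1.01 with si-A2 at 48 h, and none was called (lowest limma adjusted p = 0.0317). With si-A1 at 48 h no probe of the list, ANP32E included, was below -0.83. At 24 h none was below -0.92 with si-A1 or -0.66 with si-A2. The median difference over the list was 0.05 and -0.05 at 24 h and -0.16 and -0.21 at 48 h.

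Of the genes for deposition of H3.3, DEK, a chromatin protein with histone chaperone activity, fell with both siRNAs at 24 h, with differences of -1.58 ± 0.17 for si-A1 and -1.15 ± 0.17 for si-A2 (limma adjusted p = 0.000523 and 0.00401), and with si-A1 at 48 h (-2.05 ± 0.15). The si-A2 call of DEK was lost without any 1 of 6 of the 12 arrays. At 48 h, 4 of 17 probes were called lower with si-A1, against 3.98% of all probes. They were those of DEK, ASF1B (-1.57 ± 0.11), NASP (-1.36) and UBN1 (-0.85), of which ASF1B and NASP also handle newly made H3 during replication. With normexp, NASP and UBN1 differed by -0.36 and -0.46 and were not called. The NASP probe, A_19_P00811284, was dim, with a mean of 4.42 at 48 h. At 24 h it differed by -0.99 with si-A1, and the brighter NASP probes went the other way. Those, A_19_P00805047 and A_33_P3233981, differed by 0.89 ± 0.74 and 1.05 ± 0.80, and no NASP probe was called at 24 h. HIRA, DAXX and ASF1A are the chaperones most tied to H3.3 outside replication. HIRA differed by 0.01 and -0.06 at 24 h and by -0.01 and 0.08 at 48 h, DAXX by 0.15 and -0.18 and by -0.30 and -0.25, and ASF1A by -0.22 and -0.17 and by -0.08 and 0.43, none called. The 4 ATRX probes differed by -0.56 to -0.32 with si-A1 at 24 h and by -0.22 to -0.16 at 48 h, none called.

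Of the kinases, phosphatases and readers of phosphorylated H2AX, MDC1, which binds the phosphorylated tail, fell with si-A2 at 24 h (-1.35 ± 0.19, limma adjusted p = 0.00336) and with si-A1 at 48 h (-1.57 ± 0.16). The si-A2 call was lost without any 1 of 6 of the 12 arrays. MDC1 differed by -1.06 with si-A1 at 24 h and was not called (limma adjusted p = 0.0145). RNF168, a ubiquitin ligase recruited through MDC1 (-1.06), and both probes of BAZ1B, the kinase of the H2AX tyrosine (-0.99 and -0.71), also fell with si-A1 at 48 h. This made 4 of 22 probes, against 3.98% of all probes called lower. With si-A2 at 48 h, 0 of 22 were called in limma, against 0.445% of all probes.

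The genes whose values ran most closely with H2AX, H2AZ1 and H2AZ2 were sought over the arrays of a time point, by Pearson's r with the brightest called probe of each among 8281 named probes at 24 h and 9656 at 48 h whose interquartile range reached 0.5. The arrays of all siRNAs enter, so that r follows the differences between groups, and it is given as a description. For H2AX they were NCAPD2, a condensin subunit (r = 0.99), SERINC5 and DSN1, a kinetochore protein, over 12 arrays at 24 h, and H3C4, MAD2L1, a spindle checkpoint protein, and PCNA, the replication clamp, over 11 arrays at 48 h. For H2AZ2 they were MBOAT2, PURB and ESYT2 at 24 h (r = 0.98 for each). At 48 h they were CEP128, the helicase DDX11 and HNRNPD for H2AZ2, and HELLS, a chromatin remodeller, RFC3 and RAN for H2AZ1 (r from 0.97 to 1.00 over all).

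The fold changes of these genes at 24 h are given beside the members. NCAPD2, MBOAT2 and PURB were picked by their r over these same arrays, so their likeness to the member follows from that choice. NCAPD2 fell with both siRNAs (-1.83 with si-A1 and -1.03 with si-A2, the latter lost without any 1 of 10 of the 12 arrays), with si-A2 between si-A1 and scramble as for H2AX. MBOAT2 and PURB fell with si-A1 (-1.17 and -1.89) and differed by 0.06 and -0.14 with si-A2, as for H2AZ2. HELLS, whose values ran closest to those of H2AZ1 at 48 h, fell with both siRNAs at 24 h (-1.99 and -2.44).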

How the data were processed

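RNA of LNCaP cells was hybridised to Agilent 1-colour arrays, SurePrint G3 8x60K v2 at 24 h and v3 at 48 h. The authors deposited scanner files with the processed intensity of each spot, background-subtracted by Feature Extraction, and normalized log2 values that gave the same order of probes as the values computed here. Per the labels the authors used R 3.4.3 and limma 3.34.8. Columns of other samples numbered 0.

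Here these intensities were put on the log2 scale and quantile-normalized, over 12 arrays at 24 h and 11 at 48 h. Control spots and spots with outlier marks were left out and repeated spots averaged. A probe was tested if it exceeded the mean plus 3 SD of 308 negative control spots on at least 3 arrays. The siRNA groups of a time point entered 1 limma fit (lmFit and eBayes, limma 3.58.1, R 4.3.3, the package data.table, version 1.17.8, statmod 1.5.0) with the slide as a term. The effect at 48 h against 24 h was fitted over 23 arrays and the 35826 probes above background at both times. Calls needed a Benjamini-Hochberg adjusted p under 0.01 together with a log2 difference of 0.5 or more either way. Accessions were matched to RefSeq, which named 57.4% of the probes at 24 h and 53.4% at 48 h. Scripts were tested on simulated data. The number of arrays limits the precision, and p-values measure the spread between transfections of 1 cell line.

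The members and gene lists were chosen with earlier results of these data known. Of the other lists, up to 5 called genes per comparison with the largest change were named, plus CENPA, MACROH2A2, HIRA, DAXX, ATRX, ASF1A, ASF1B and ANP32E, and for each called member the 3 genes with the highest r (those of MACROH2A1 are not reported here). At 48 h, samples with the same replicate number deviated together (r 0.179 to 0.354 over 10 pairs, median 0.217). Samples of the same slide with other numbers did so too (0.0985 to 0.292, median 0.189). Pairing by number can therefore not be told apart from the slide. Alternatives changed the background correction, normalization, source of the values, filters, thresholds, slide or replicate block, the arrays in the fit and the probes per gene, and kept the dim array.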

Additional observations from a re-analysis of the deposited data

Results flagged for a closer look

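Of 59 groups of 4 arrays, 2 held an array far from the rest by Dixon's criterion (3.39%), and chance alone gives about 1 in 20. For the H2AJ probe A_33_P3379391 with si-A1 at 24 h, replicate 3 was highest at 6.11 against 5.72 to 5.79, a gap of 0.83 of the range. For the H3-3A probe A_19_P00805757 in scramble at 24 h, replicate 2 was lowest at 8.48 against 9.19 to 9.29, a gap of 0.873 of the range. Neither probe was called in any comparison.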

How the results depend on the processing

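With si-A1 at 24 h, 2 to 4 member probes were called under every alternative and 3 without any single array. With si-A1 at 48 h the count was 0 with the dim array kept, as it was for si-A2 and for si-A2 against si-A1 at 48 h, where the cause was not tested. With si-A2 at 24 h it was 1, H2AX, at an adjusted p below 0.05, with scaling on the 75th percentile, normexp, no background correction, or a filter on probes well above background, and 0 otherwise. At an adjusted p below 0.05 the count over all probes there rose too, from 416 to 807. With si-A2 at 48 h it was 2 at an adjusted p below 0.05, 3 with normexp and 3 with no background correction (H2AX -0.92 and -1.05), and 0 with a fold threshold of 1, the replicate block, a fit of only the groups compared, or an interquartile filter. The count over all probes there was 201 in the main fit, 1173 at an adjusted p below 0.05 and 0 with the block. For si-A2 against si-A1 at 24 h it was 1 with the replicate block, the interquartile filter or 1 probe per gene, and 0 with only the groups compared. Over all probes it was 164 in the main fit, 46 with the block and 29 with only the groups compared. At 48 h the member count was 4 at an adjusted p below 0.05, with no background correction or with the filter on probes well above background, 1 with 1 probe per gene, and 0 with only the groups compared. Over all probes it was 654 in the main fit and 2075 at an adjusted p below 0.05. For si-A1 at 48 h against 24 h the member count was 1 with no background correction. Without single arrays, counts were 0 to 2 for si-A2 against si-A1 at either time and 0 for si-A2 at 48 h.

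At 48 h, where samples with the same replicate number deviated together, the replicate block ended the si-A2 call of H2AZ2 (-0.88, adjusted p = 0.0225). It also ended that of its dimmer probe against si-A1 (2.51, 0.0194), and called H2AZ1 against si-A1 (1.11, 0.00728). It changed no other call of a member at 48 h. Over all probes at 48 h it left 1797 of 2761 calls for si-A1, 0 of 201 for si-A2 and 257 of 654 for si-A2 against si-A1. Values of the other lists under these alternatives were computed after the data were seen, and stand with the lists. At 24 h, r between samples with the same replicate number, which share the slide as well, was -0.147 to 0.159. There the block left 46 of 164 calls over all probes for si-A2 against si-A1. Over all probes the alternatives gave 175 to 1012 calls at 24 h with si-A1 and 191 to 807 with si-A2, 27 to 5261 and 0 to 1173 at 48 h, and for si-A2 against si-A1 29 to 615 at 24 h and 0 to 2075 at 48 h. For the effect at 48 h against 24 h they gave 0 to 292 calls (si-A1) and 0 to 35 (si-A2).

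Signs turned only for values that were not called. H2AZ2 minus H2AZ1 at 48 h was 0.21 with normexp and 0.12 with no background correction for si-A1, and 0.50 for si-A2 with the dim array kept. Without single arrays it ranged from -0.15 to 0.0056 and from -0.20 to 0.11. With the dim array kept, H2AJ A_23_P204277 with si-A2 gave -0.068 and MACROH2A1 against si-A1 gave -0.64. H2AJ A_33_P3379391 with si-A1 at 24 h gave 0.0015 with no background correction, and H3-3A A_23_P23141 with si-A2 at 24 h gave 0.011 with scaling on the 75th percentile. Without single arrays at 24 h, MACROH2A1 ranged from -0.046 to 0.15 with si-A1 and from -0.021 to 0.17 against si-A1, and H2AJ A_33_P3379391 from -0.20 to 0.053 with si-A1 and from -0.045 to 0.26 with si-A2. H3-3B A_33_P3410194 with si-A1 ranged from -0.17 to 0.059. With si-A2 at 24 h, H3-3A A_23_P23141 ranged from -0.19 to 0.055, H3-3A A_24_P105298 from -0.21 to 0.021 and H2AZ2 A_23_P316487 from -0.20 to 0.066. At 48 h, H2AJ A_23_P204277 with si-A1 ranged from -0.0022 to 0.050. The change of the si-A2 effect between times ranged from -0.42 to 0.062 for H2AX and from -0.20 to 0.0080 for H2AZ1. Dim probes limit the values of H2AZ2 A_23_P316487 with si-A1 at 48 h, which are bounds.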
